A study of Mus musculus with 9 samples.

Results

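The genes described here are 10 that carry or modify TGF-β signalling: the ligand gene Tgfb1, the receptor genes Tgfbr1 and Tgfbr2, the SMAD genes Smad2, Smad3, Smad4 and Smad7, the SMAD co-repressor gene Skil, and the transcription factor genes Runx2 and Runx3. They were taken by symbol and not by a rule on measured values, as 10 of 45361 gene identifiers in the count table. The choice was made with earlier results of these data known. All 10 passed the filter on low counts and were tested among 12580 genes.

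RNA was sequenced from CH12F3, mouse B-lymphoma cells able to switch from IgM to IgA in culture. Every library carried the genotype Ligase4 KO, which removes the ligase that seals breaks in classical end joining, and all had been stimulated for 24 h with TGF-β, IL-4 and anti-CD40. The 3 groups had 3 libraries each. They were valemetostat, an inhibitor of the H3K27 methyltransferases EZH1 and EZH2, tazemetostat, an inhibitor of EZH2, and DMSO, the vehicle. The labels give no dose and no duration for either inhibitor, so the inhibitors are compared as used. They name no clone. Whether the replicates were separate cultures is not stated, so the p-values rest on a spread that may be technical. TGF-β was added to all groups, so no library shows the cells without it.

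TGF-β binds the type II receptor TGFBR2, which recruits and phosphorylates the type I receptor TGFBR1. TGFBR1 then phosphorylates SMAD2 and SMAD3, which join SMAD4 and enter the nucleus, while SMAD7 and the SKIL protein (SnoN) restrain the signal at the receptor and at target genes. In mouse B cells, TGF-β directs switching to IgA through SMAD and RUNX proteins that act at the Igha germline promoter, with RUNX3 and RUNX2 both described in this role.

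The 9 libraries held 34080504 to 46675110 counts. In CPM, which are counts scaled to 1 common library size, a floor of 3 counts lay at 0.0643 to 0.0880, and this floor covers counting error only. The targeted gene Lig4 held 31 to 46 counts with valemetostat, 21 to 59 with tazemetostat and 29 to 39 with DMSO, and with the same deletion in every group this checks no label. All 10 B cell markers had over 3 counts in every library, with a summed TPM, an abundance scaled for transcript length and depth, of 9711 to 10100 with valemetostat, 9763 to 9963 with tazemetostat and 8540 to 9079 with DMSO. Markers of other cells also moved. The 10 stromal and endothelial markers summed to 27.1 to 41.1 TPM with valemetostat, 23.7 to 28.3 with tazemetostat and 1.72 to 4.30 with DMSO, with Col1a2 at 0 throughout. Of these, Vim held 4033, 4104 and 147 counts and Lum 60, 61 and 0 in the 3 groups in that order, whereas Cdh5 held 167, 170 and 192. Of 6 tested markers of that list, 2 were called higher, 0 lower and 4 were not called with either inhibitor. The 10 myeloid markers summed to 26.4 to 28.8, 26.1 to 28.1 and 20.5 to 26.1 TPM in the same order, with Cd14, S100a8 and S100a9 at 0 throughout. In that order Lyz2 held 145, 167 and 3 counts, Adgre1 780, 1033 and 328, Cd68 1250, 1358 and 770, and Csf1r 2313, 2708 and 3390. Of 5 tested myeloid markers, 3 were called higher and 1 lower with either inhibitor. These marker counts stand beside 39.2% of all tested genes called with valemetostat and 38.1% with tazemetostat. Lum and Lyz2, with 0 and 3 counts in DMSO, could pass the filter on low counts only through the inhibitor libraries. The 9 T cell markers summed to 35.6 to 40.1, 32.2 to 35.2 and 31.6 to 36.0 TPM, and the 7 erythroid and megakaryocyte markers to 16.3 to 18.2, 16.3 to 19.0 and 10.9 to 12.2 TPM, with Pf4 at 0. Hba-a1 held 581, 690 and 354 counts, Klf1 168, 203 and 208, and Itga2b 28, 31 and 41, in the same order. With either inhibitor, 1 of 3 tested erythroid and megakaryocyte markers and 1 of 7 tested T cell markers were called higher, and 0 lower. The part of these markers in the results below was not tested.

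Both inhibitors went with more Runx2, Tgfbr1, Tgfb1 and Smad2 RNA and with less Tgfbr2, Smad7 and Smad4 RNA than DMSO. Skil was also lower with valemetostat, and Smad3 and Runx3 did not pass the test against DMSO with either inhibitor. With valemetostat 8 of the 10 genes passed an adjusted p of 0.05 (edgeR's quasi-likelihood test, Benjamini-Hochberg adjustment over all genes tested), 4 of them higher and 4 lower. With tazemetostat 7 of the 10 passed, 4 higher and 3 lower. The inhibitors changed a large part of all RNAs: 39.2% of tested genes passed with valemetostat (20.5% higher, 18.7% lower) and 38.1% with tazemetostat (19.9% higher, 18.2% lower). The 2 comparisons share the same DMSO libraries. The median absolute log2 fold change of the 10 genes was 0.30 with valemetostat and 0.27 with tazemetostat, beside 0.19 and 0.18 over all genes tested. The libraries of the 2 groups did not overlap for 8 of the 10 genes between valemetostat and DMSO and for 7 of the 10 between tazemetostat and DMSO. Over all genes tested that share was 48.5% and 47.4%. Between valemetostat and tazemetostat 1 of the 10 genes passed, Runx2, which was lower with valemetostat, and 3 of the 10 did not overlap. Over all genes that comparison called 0.318% (0.0636% higher, 0.254% lower), and 14.1% did not overlap. These are bulk libraries, in which fewer cells of a type and less RNA per cell cannot be told apart.

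**Figure D1:**
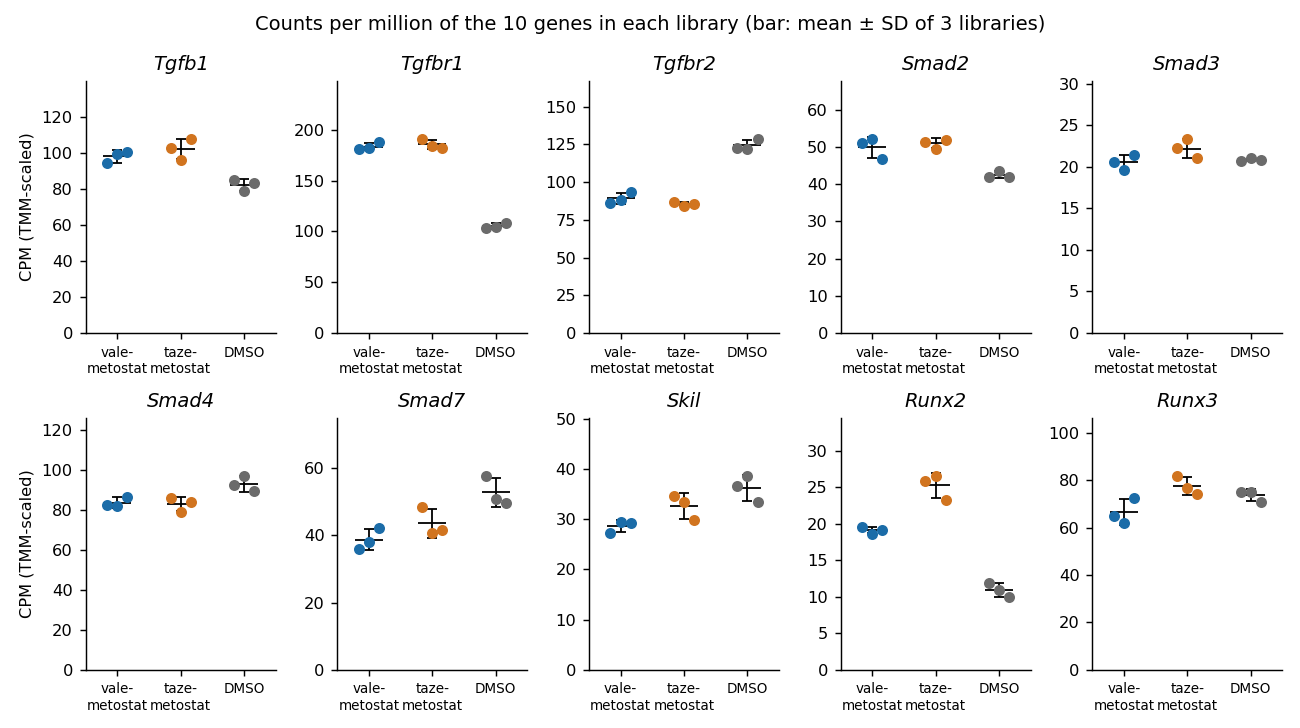
CPM (y axis, TMM-scaled, from 0) of each gene in each of 9 libraries, with valemetostat, tazemetostat and DMSO from left to right and bars for the mean ± SD of 3 libraries. Tgfbr1 sat at 181 to 191 CPM in the 6 inhibitor libraries against 103 to 108 in DMSO, while the Smad3 points of the 3 groups overlap.

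**Figure D2:**
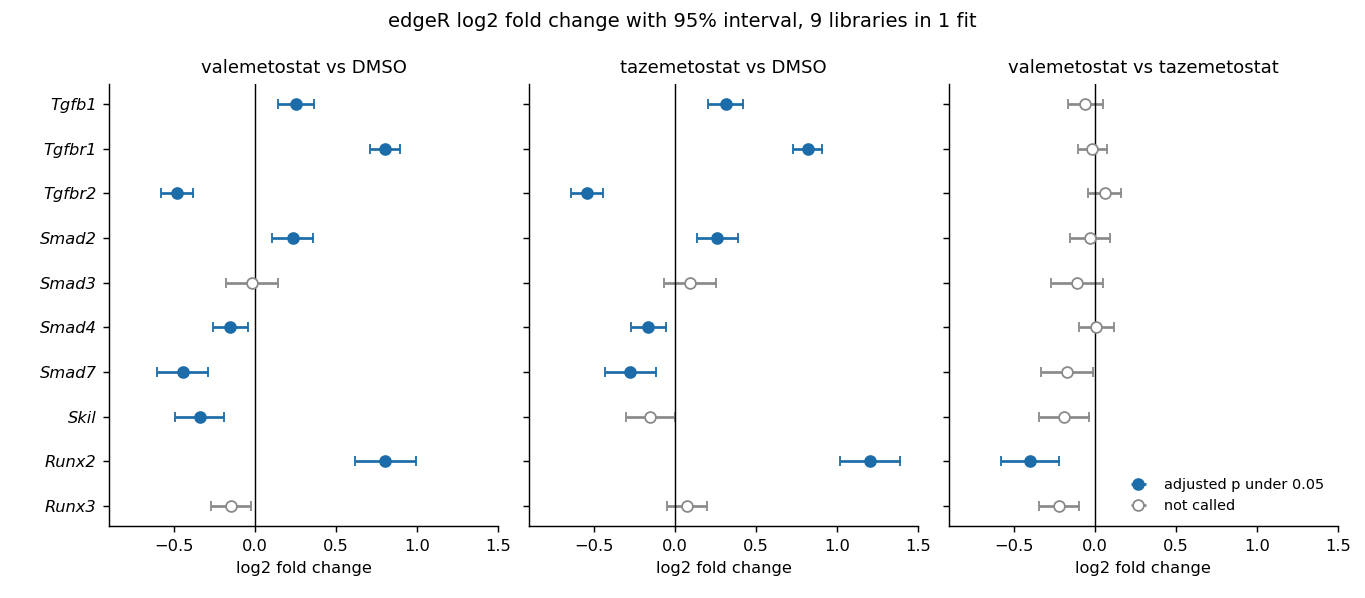
Log2 fold change (x axis) with its 95% interval for each gene in the 3 comparisons, filled where the adjusted p is under 0.05. Runx2 and Tgfbr1 lie farthest to the right in both comparisons with DMSO, Tgfbr2 lies farthest to the left, and Runx2 is the only filled point between the inhibitors.

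Tgfb1 (ENSMUSG00000002603) encodes the TGF-β1 ligand, which cells secrete in a latent form. It measured 94.1, 99.5 and 101 CPM with valemetostat, 103, 96.2 and 108 with tazemetostat, and 84.7, 78.6 and 83.4 with DMSO. All 6 inhibitor libraries lay above all 3 DMSO libraries. The rise was 1.19-fold with valemetostat (log2 0.25 ± 0.05 SE, edgeR adjusted p = 0.000435) and 1.24-fold with tazemetostat (log2 0.31 ± 0.05, adjusted p = 3.97e-05). TGF-β had been added in every group, and RNA levels say nothing of how much ligand was secreted or activated.

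Tgfbr1 (ENSMUSG00000007613) encodes the type I receptor kinase, the one that phosphorylates the SMADs. It measured 181, 182 and 187 CPM with valemetostat, 191, 184 and 182 with tazemetostat, and 103, 104 and 108 with DMSO. The inhibitor libraries lay together and far above DMSO, with a gap many times the spread within a group. The rise was 1.75-fold with valemetostat (95% interval 1.64 to 1.86, edgeR adjusted p = 1.65e-13) and 1.77-fold with tazemetostat (1.66 to 1.88, adjusted p = 1.03e-13). By absolute log2 fold change it ranked 971 of the 4927 genes called with valemetostat and 945 of the 4794 called with tazemetostat.

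Tgfbr2 (ENSMUSG00000032440) encodes the type II receptor, which binds the ligand first. It measured 86.1, 88.3 and 93.2 CPM with valemetostat, 86.9, 84.0 and 85.4 with tazemetostat, and 123, 122 and 128 with DMSO. Here the inhibitor libraries lay below DMSO, again with no overlap. Tgfbr2 fell to 0.72 of its DMSO level with valemetostat (log2 -0.48 ± 0.05 SE, edgeR adjusted p = 1.68e-08) and to 0.69 with tazemetostat (log2 -0.54 ± 0.05, adjusted p = 2.00e-09). The receptor genes thus moved in opposite directions in the same libraries.

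The opposite moves changed which receptor RNA was the more abundant. Per length, Tgfbr1 averaged 45.0 ± 0.7 TPM with valemetostat, 45.2 ± 2.3 with tazemetostat and 26.7 ± 0.7 with DMSO (SD, n = 3 each). Tgfbr2 averaged 24.1 ± 1.1 TPM with valemetostat, 23.2 ± 1.2 with tazemetostat and 36.2 ± 1.1 with DMSO. The ratio of Tgfbr1 to Tgfbr2 TPM within a library was 1.91, 1.91 and 1.80 with valemetostat, 1.92, 1.99 and 1.92 with tazemetostat, and 0.742, 0.734 and 0.735 with DMSO. The ratio was above 1 in all 6 inhibitor libraries and below 1 in all 3 DMSO libraries. A ratio within a library does not depend on the factor that scales libraries to each other. It can still carry a trend with transcript length that differs between libraries, as described below. The longest transcripts are 5756 nt for Tgfbr1 and 8092 nt for Tgfbr2, and the part of that trend in the ratio was not tested. The ratio is one of RNAs, and receptor protein was not measured.

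**Figure D3:**
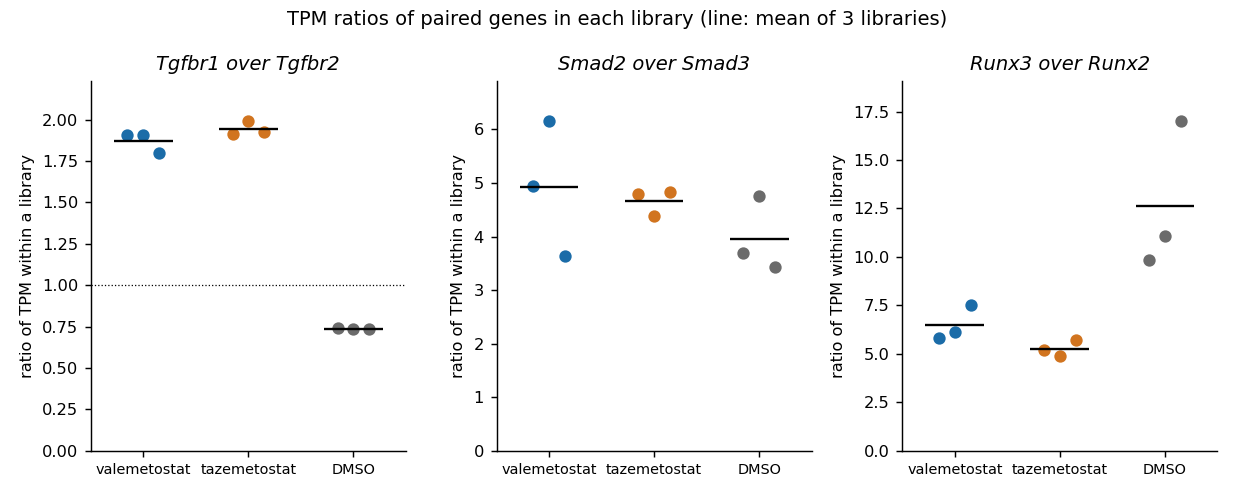
Ratio of TPM of paired genes within each library (y axes, from 0), with valemetostat, tazemetostat and DMSO from left to right and a line at the mean of 3 libraries. The Tgfbr1 to Tgfbr2 ratio lies between 1.80 and 1.99 with the inhibitors against 0.734 to 0.742 with DMSO, the Smad2 to Smad3 ratios of the groups overlap, and the Runx3 to Runx2 ratio is lower with both inhibitors than with DMSO.

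The sequences next to the starts of the receptor genes are shown because the pair moved in opposite directions. Each is the 250 bases before an annotated start, 5′ to 3′ on the gene's strand, from RefSeq on build GRCm38.p6, whereas the counts were made on mm9. RefSeq windows were taken by symbol, and those of 6 of the 10 genes were used. Windows of Skil, Smad2, Smad4 and Smad7 were not used, which does not mean that RefSeq holds none for them. The Tgfbr1 window is chr4:47352972-47353221 on the plus strand and the Tgfbr2 window chr9:116175364-116175613 on the minus strand.
Tgfbr1: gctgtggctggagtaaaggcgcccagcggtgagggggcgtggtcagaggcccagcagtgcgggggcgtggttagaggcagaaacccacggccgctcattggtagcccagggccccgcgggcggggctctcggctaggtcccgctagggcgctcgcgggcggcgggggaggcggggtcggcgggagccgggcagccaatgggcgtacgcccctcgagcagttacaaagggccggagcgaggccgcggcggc
Tgfbr2: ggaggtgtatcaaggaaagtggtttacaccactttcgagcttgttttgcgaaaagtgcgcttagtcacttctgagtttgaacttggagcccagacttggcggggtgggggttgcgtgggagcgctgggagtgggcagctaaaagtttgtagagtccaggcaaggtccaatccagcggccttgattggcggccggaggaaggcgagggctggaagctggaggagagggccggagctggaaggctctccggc
The Tgfbr1 window has 74.8% G and C and holds 29 CpG dinucleotides, and 6.78% of the 32851 windows in the table hold as many or more. The Tgfbr2 window has 58.4% G and C and 12 CpG, against a median of 6 over all windows. Neither holds the letters CAGACA or GTCTAGAC, which SMAD3 and SMAD4 are known to bind, nor TGTGGT or TGCGGT, which RUNX proteins are known to bind, on either strand. A second annotated Tgfbr1 start, at chr4:47385966-47386215 for its window, has 3 CpG and 1 CAGACA. A match or its absence describes only these letters in these windows.

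SMAD2 and SMAD3 are the receptor-regulated SMADs of this route. Smad2 (ENSMUSG00000024563) measured 51.0, 52.1 and 46.7 CPM with valemetostat, 51.5, 49.5 and 52.0 with tazemetostat, and 41.9, 43.6 and 42.0 with DMSO. All inhibitor libraries lay above DMSO, by less than for Tgfbr1. Smad2 rose 1.18-fold with valemetostat (log2 0.23 ± 0.06 SE, edgeR adjusted p = 0.00349) and 1.2-fold with tazemetostat (log2 0.26 ± 0.06, adjusted p = 0.00128). With an offset for transcript length and GC content the valemetostat value was 0.38. On the deposited log2(TPM + 1) values, tested with limma-trend, the change was 0.17 with each inhibitor and did not pass (adjusted p = 0.23 in both).

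Smad3 (ENSMUSG00000032402), the partner of Smad2, was less abundant and showed no change that passed the test. Its libraries spanned 19.6 to 21.4 CPM with valemetostat, 21.0 to 23.3 with tazemetostat and 20.7 to 21.0 with DMSO. The log2 fold change was -0.02 with valemetostat (95% interval -0.18 to 0.14, edgeR adjusted p = 0.876) and 0.09 with tazemetostat (-0.07 to 0.25, adjusted p = 0.373). Its sign turned with the scaling in both comparisons, at 0.04 for valemetostat with the length and GC offset and -0.06 for tazemetostat on log2(TPM + 1). Per length, the Smad2 to Smad3 ratio was 4.95, 6.17 and 3.65 with valemetostat, 4.80, 4.38 and 4.84 with tazemetostat, and 3.69, 4.77 and 3.43 with DMSO, and the groups overlapped. In counts the ratio was 2.475, 2.656 and 2.185 with valemetostat, 2.314, 2.122 and 2.478 with tazemetostat, and 2.029, 2.077 and 2.022 with DMSO. On that scale both inhibitor groups lay above DMSO without overlap.

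Smad4 (ENSMUSG00000024515) encodes the common SMAD that joins the receptor-regulated ones. It measured 82.3, 81.7 and 86.5 CPM with valemetostat, 85.9, 78.9 and 83.8 with tazemetostat, and 92.3, 96.9 and 89.2 with DMSO. The inhibitor libraries lay just below DMSO with no overlap. Smad4 fell to 0.90 of its DMSO level with valemetostat (log2 -0.15 ± 0.05 SE, edgeR adjusted p = 0.0229) and to 0.89 with tazemetostat (log2 -0.16 ± 0.05, adjusted p = 0.0155). Single libraries decided these calls. Without DMSO replicate 2 the adjusted p was 0.124 for valemetostat and 0.0851 for tazemetostat. It was 0.0792 without valemetostat replicate 1, 0.0990 without valemetostat replicate 2 and 0.0996 without tazemetostat replicate 2.

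Smad7 (ENSMUSG00000025880) encodes the inhibitory SMAD, itself induced by TGF-β, which recruits ubiquitin ligases to the receptors. It measured 36.0, 38.1 and 42.3 CPM with valemetostat, 48.6, 40.7 and 41.7 with tazemetostat, and 57.7, 50.9 and 49.8 with DMSO. Both inhibitor groups lay below DMSO without overlap, tazemetostat by a narrow gap. Smad7 fell to 0.73 of its DMSO level with valemetostat (log2 -0.45 ± 0.08 SE, edgeR adjusted p = 5.37e-05) and to 0.83 with tazemetostat (log2 -0.27 ± 0.08, adjusted p = 0.00601). DMSO replicate 1 was the highest of the 9 libraries. Without it the tazemetostat adjusted p was 0.0532. On log2(TPM + 1) with limma-trend neither change passed (log2 -0.37, adjusted p = 0.0859 with valemetostat, and log2 -0.29, adjusted p = 0.169 with tazemetostat).

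Skil (ENSMUSG00000027660) encodes SnoN, a co-repressor that binds SMAD complexes and is degraded and then re-induced on TGF-β signalling. It measured 27.2, 29.4 and 29.3 CPM with valemetostat, 34.7, 33.4 and 29.8 with tazemetostat, and 36.7, 38.7 and 33.5 with DMSO. The valemetostat libraries were the lowest and overlapped neither other group, while tazemetostat overlapped DMSO. Skil fell to 0.79 of its DMSO level with valemetostat (log2 -0.34 ± 0.07 SE, edgeR adjusted p = 0.000643). With tazemetostat the log2 fold change was -0.15 ± 0.07 and did not pass (adjusted p = 0.108), and without DMSO replicate 3 it did (log2 -0.21, adjusted p = 0.0431). On log2(TPM + 1) the valemetostat difference was -0.04 and did not pass (limma-trend, adjusted p = 0.855).

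RUNX2 is best known as the factor of bone formation and is also expressed in B cells. Runx2 (ENSMUSG00000039153) had the largest fold change of the 10 genes with tazemetostat. It measured 19.6, 18.6 and 19.2 CPM with valemetostat, 25.9, 26.5 and 23.2 with tazemetostat, and 11.9, 11.0 and 9.90 with DMSO. The 3 groups did not overlap, and valemetostat lay between the other groups. Runx2 rose 1.75-fold with valemetostat (95% interval 1.54 to 1.99, edgeR adjusted p = 1.03e-07) and 2.31-fold with tazemetostat (2.03 to 2.62, adjusted p = 6.44e-11). The tazemetostat value was the only one past 2-fold among the 10 genes in the 3 comparisons. An antisense gene, Runx2os1, shares 519 of the 8837 exonic bases of Runx2 (5.87%) in GENCODE M21, and since the use of strand in counting is not given, reads of the pair cannot be told apart there. None of the other 9 genes shares exonic bases with another gene in that annotation.

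RUNX3 is the RUNX factor most studied in TGF-β responses of mouse B cells. Runx3 (ENSMUSG00000070691) measured 64.9, 62.0 and 72.6 CPM with valemetostat, 81.8, 76.5 and 74.2 with tazemetostat, and 75.2, 74.9 and 70.7 with DMSO. Both inhibitor groups overlapped DMSO. The log2 fold change was -0.15 with valemetostat (95% interval -0.27 to -0.02, edgeR adjusted p = 0.0556) and 0.08 with tazemetostat (-0.05 to 0.20, adjusted p = 0.345). The valemetostat value passed with library totals in place of TMM (adjusted p = 0.0428), without DMSO replicate 3 (0.0440) and without valemetostat replicate 3 (0.0114). The tazemetostat value was -0.03 on log2(TPM + 1).

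Runx3 remained the more abundant of the pair in every library. Per length, Runx3 averaged 35.3 ± 3.7 TPM with valemetostat, 39.7 ± 2.9 with tazemetostat and 40.7 ± 3.0 with DMSO (SD, n = 3 each). Runx2 averaged 5.46 ± 0.42 TPM with valemetostat, 7.59 ± 0.91 with tazemetostat and 3.45 ± 1.11 with DMSO. The Runx3 to Runx2 ratio of TPM was 5.80, 6.14 and 7.53 with valemetostat, 5.19, 4.90 and 5.71 with tazemetostat, and 9.82, 11.1 and 17.0 with DMSO. The ratio was lower in all 6 inhibitor libraries than in all 3 DMSO libraries. The third RUNX gene, Runx1, measured 17.1 ± 1.3 CPM with valemetostat, 17.6 ± 0.8 with tazemetostat and 17.7 ± 0.6 with DMSO, with no call.

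The windows of the RUNX genes are shown because Runx2 rose and Runx3 did not pass the test. They come from the same table, with the capitals marking the searched letters on either strand. The Runx2 window is chr17:44814628-44814877 on the minus strand, and the Runx3 windows, for 2 annotated starts, are chr4:135120395-135120644 and chr4:135152295-135152544 on the plus strand.
Runx2: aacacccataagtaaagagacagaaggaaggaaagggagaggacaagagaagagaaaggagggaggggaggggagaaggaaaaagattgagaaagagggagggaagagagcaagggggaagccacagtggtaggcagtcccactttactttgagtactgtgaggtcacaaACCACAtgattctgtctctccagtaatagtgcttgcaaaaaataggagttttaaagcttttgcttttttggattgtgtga
Runx3, first start: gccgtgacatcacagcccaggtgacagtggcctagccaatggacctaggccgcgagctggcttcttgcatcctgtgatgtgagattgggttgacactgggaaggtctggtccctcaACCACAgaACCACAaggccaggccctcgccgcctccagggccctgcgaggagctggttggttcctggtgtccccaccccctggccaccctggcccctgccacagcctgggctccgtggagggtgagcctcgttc
Runx3, second start: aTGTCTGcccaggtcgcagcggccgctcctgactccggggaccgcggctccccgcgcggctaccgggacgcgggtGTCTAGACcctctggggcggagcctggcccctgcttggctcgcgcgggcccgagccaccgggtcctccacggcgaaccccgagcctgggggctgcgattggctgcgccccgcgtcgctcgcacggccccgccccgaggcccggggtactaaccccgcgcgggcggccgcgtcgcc
The Runx2 window holds 0 CpG and 44.8% G and C, the lowest of the 8 windows used, which cover 6 of the 10 genes. The Runx3 windows hold 8 and 38 CpG. The RUNX letters TGTGGT, which read ACCACA on the other strand, occur 1 time in the Runx2 window, 80 bases before the start, and 2 times in the first Runx3 window, at 134 and 126 bases. They occur in 14% of all 32851 windows, and TGCGGT, which is in none of the 8, in 5.1%. The second Runx3 window holds 1 CAGACA (as TGTCTG) and 1 GTCTAGAC, which occur in 17.1% and 0.167% of all windows. The data do not show which start these cells used.

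Valemetostat and tazemetostat were set against each other gene by gene. Runx2 was lower with valemetostat, at 0.76 of its tazemetostat level (log2 -0.40, 95% interval -0.58 to -0.22, edgeR adjusted p = 0.0363), and it ranked 17 of the 40 genes called in that comparison by absolute log2 fold change. That call rested on single libraries: without valemetostat replicates 1, 2 or 3 the adjusted p was 0.132, 0.276 and 0.0902, and without tazemetostat replicates 1 or 2 it was 0.279 and 0.304. It also did not pass with library totals in place of TMM (0.0744) or on log2(TPM + 1) (log2 -0.41, adjusted p = 0.832).

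Runx3 and Skil did not overlap between the inhibitors and were lower with valemetostat, but did not pass (Runx3 log2 -0.22, interval -0.35 to -0.10, edgeR adjusted p = 0.161, and Skil log2 -0.19, -0.34 to -0.04, adjusted p = 0.470). The Runx3 difference passed with no filter on counts (adjusted p = 0.0372), with the length and GC offset (0.0311) and without valemetostat replicate 3 (0.0435). For Smad7 the log2 difference was -0.17 (interval -0.33 to -0.01, edgeR adjusted p = 0.580). The receptors lay close together: the interval of the log2 difference was -0.11 to 0.07 for Tgfbr1 and -0.04 to 0.16 for Tgfbr2. It was -0.17 to 0.05 for Tgfb1, -0.15 to 0.10 for Smad2, -0.27 to 0.05 for Smad3 and -0.10 to 0.12 for Smad4. Differences within these intervals remain compatible with the data of 3 libraries a group, and the doses are not known to match.

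On the per-length TPM scale Tgfb1 was the most abundant of the 10 RNAs in each group, at 62.1 ± 1.7 TPM with valemetostat, 65.3 ± 1.7 with tazemetostat and 55.2 ± 1.1 with DMSO (SD, n = 3 each). Its libraries did not overlap those of the next gene. With valemetostat the order below it was Tgfbr1, Runx3, Smad4, Smad2, Tgfbr2, Smad7, Skil, Smad3 and Runx2. Runx3 and Smad4, Smad2 and Tgfbr2, and Smad3 and Runx2 were neighbours whose libraries overlapped. With tazemetostat the order was Tgfbr1, Runx3, Smad4, Smad2, Tgfbr2, Smad7, Skil, Runx2 and Smad3, with overlap between Tgfbr1 and Runx3 and between Skil and Runx2. With DMSO it was Runx3, Smad4, Tgfbr2, Tgfbr1, Smad2, Smad7, Skil, Smad3 and Runx2, with overlap between Runx3 and Smad4, Smad4 and Tgfbr2, Tgfbr1 and Smad2, and Smad2 and Smad7. In rank, Tgfbr1 was 2 of 10 with either inhibitor against 5 of 10 with DMSO, and Tgfbr2 was 6 of 10 against 4 of 10.

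The libraries also differed by transcript length, in step with the groups. Across genes within a library, the Spearman correlation between a gene's deviation from its mean log2 CPM and its transcript length was -0.251, -0.454 and -0.236 with valemetostat, -0.028, -0.012 and -0.441 with tazemetostat, and 0.288, 0.480 and 0.208 with DMSO. Genes are not independent replicates, and these values are a description. For 9 of the 10 genes the longest annotated transcript is above the median of 3240.5 nt over the tested genes. Its length is 2573 nt for Tgfb1, 5756 for Tgfbr1, 6463 for Runx2 and 8092 for Tgfbr2. With the length and GC offset, the Tgfbr1 log2 fold change was 0.88 with valemetostat and 0.87 with tazemetostat, the Tgfbr2 one -0.33 and -0.43, and the Runx2 one 0.91 and 1.28, all still called. On log2(TPM + 1), with limma-trend, Tgfbr1, Tgfbr2, Runx2, Tgfb1 and Smad4 were called in both comparisons. That leaves 5 of the 10 genes called there with either inhibitor.

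**Figure D4:**
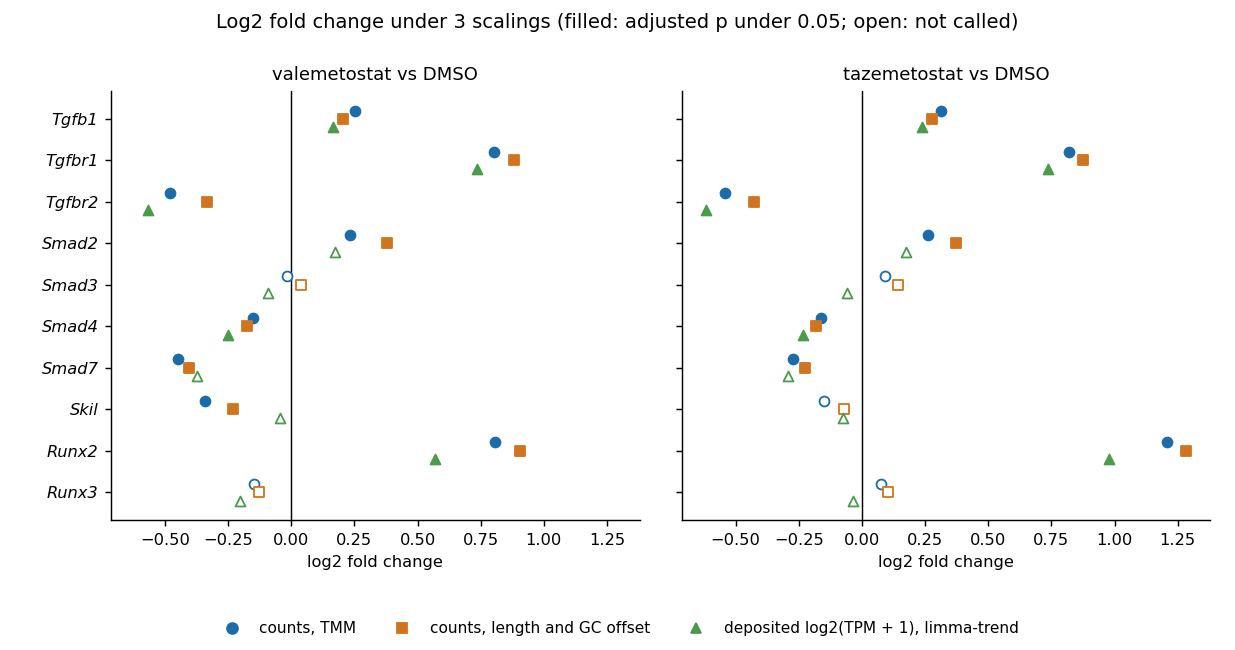
Log2 fold change against DMSO (x axis) of each gene from counts with TMM scaling, from counts with a length and GC offset, and from the deposited log2(TPM + 1) values, with valemetostat on the left and tazemetostat on the right. Filled symbols have an adjusted p under 0.05. Tgfbr1, Tgfbr2, Runx2, Tgfb1 and Smad4 are filled under all 3 scalings, Smad2 and Smad7 are open on log2(TPM + 1), and Smad3 crosses 0.

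For the genes with the largest mean change against DMSO, the tested genes of most similar pattern over the 9 libraries were picked by Pearson's r of log2 CPM among 10387 genes. The points share the 3 groups and their DMSO libraries, and r is given as a description. The nearest to Runx2 was Lrrc32 (r = 0.992), which encodes GARP, a membrane anchor of latent TGF-β, followed by Arhgap22 (0.986), which encodes a GTPase-activating protein, and Nedd4l (0.983), a ubiquitin ligase that acts on SMADs. The Arhgap22 difference between valemetostat and DMSO (log2 0.33) was not called. For Tgfbr1 they were Maged1, Vcam1 and Prnd (0.998 each), of which Vcam1 encodes an integrin-binding adhesion molecule. Vcam1 averaged 103 ± 3 CPM with valemetostat, 105 ± 1 with tazemetostat and 10.2 ± 0.95 with DMSO, a much larger fold change than that of Tgfbr1. For Tgfbr2 they were Il21r (0.991), a cytokine receptor gene, Naa40 (0.988), an N-terminal acetyltransferase gene, and Fut8 (0.984), a fucosyltransferase gene. Such values were common: 484 genes had r over 0.9 with Runx2, 963 with Tgfbr1 and 563 with Tgfbr2. With group means removed, r of the genes picked here was lower, from 0.405 (Vcam1) to 0.785 (Lrrc32).

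The rest of the pathway was read from lists of known roles, whose counts stand against the 39.2% of all tested genes called with valemetostat (20.5% higher, 18.7% lower) and the 38.1% called with tazemetostat (19.9% higher, 18.2% lower). The lists are short, and nothing particular to a list is read from its count. Genes were named by smallest p, so naming under a single inhibitor does not mean that the other left the gene unchanged. Of 12 tested ligand and latency genes, 3 rose and 0 fell with valemetostat, and 4 rose and 1 fell with tazemetostat. Lrrc32 (GARP) measured 16.3 ± 1.4 CPM with valemetostat, 21.3 ± 1.7 with tazemetostat and 9.63 ± 0.77 with DMSO. It rose by log2 0.76 and 1.15 (edgeR adjusted p = 1.17e-06 and 1.00e-09), though the valemetostat rise did not pass on log2(TPM + 1) (adjusted p = 0.132). Ltbp4, a latent TGF-β binding protein, rose by log2 0.34 and 0.20 (adjusted p = 0.000821 and 0.0396). The Ltbp4 rise with tazemetostat did not pass under 8 of 19 alternatives, among them without DMSO replicates 2 or 3 and without tazemetostat replicates 1 or 2 (highest adjusted p = 0.474, on log2(TPM + 1)), and on that scale the valemetostat rise did not pass either (0.103). Ltbp3, another of these binding proteins, fell to 0.144 CPM with tazemetostat, against 0.642 with DMSO (log2 -2.17, adjusted p = 0.0100). These means rest on 17 and 74 counts, and Ltbp3 averaged 0.300 CPM with valemetostat. It passed the filter on low counts only through the DMSO libraries, so against DMSO it could be called only as lower. The tazemetostat fall did not pass without DMSO replicate 3 or tazemetostat replicate 1 (0.0555 and 0.0746). Nor did it pass on log2(TPM + 1) with limma-trend (adjusted p = 0.102). Without tazemetostat replicate 2, or with library totals, 2 in place of 4 genes of the list rose with tazemetostat.

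Of 10 tested TGF-β family receptor genes, 3 rose and 3 fell with valemetostat, and 3 rose and 2 fell with tazemetostat, the receptor pair above included. Tgfbr3, the co-receptor betaglycan, is 1 of the 3 that rose, and held 77 counts over 3 libraries with valemetostat, 105 with tazemetostat and 1 with DMSO. It passed the filter on low counts only through the inhibitor libraries, so against DMSO it could be called only as higher. The ratios of depth-scaled counts were 81.8 (95% exact interval 14.3 to 3270) and 99.1 (17.4 to 3950), intervals that cover counting error only. Its mean was under 1 CPM in every group, and it did not pass on log2(TPM + 1) (adjusted p = 0.0739 with valemetostat and 0.0723 with tazemetostat). Acvr2a, an activin type II receptor, measured 10.6 ± 1.4, 9.48 ± 0.90 and 6.33 ± 1.10 CPM with valemetostat, tazemetostat and DMSO (log2 0.75 and 0.59, edgeR adjusted p = 9.82e-05 and 0.00146), and its tazemetostat rise did not pass on log2(TPM + 1) (0.0978). On that scale 1 receptor gene in place of 3 rose with tazemetostat. Without DMSO replicates 2 or 3 or tazemetostat replicate 3, 1 in place of 2 fell.

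Of 6 tested SMAD genes, 1 rose and 3 fell with either inhibitor. Besides those above, Smad5, a SMAD of BMP signalling, fell to 31.2 ± 1.6 CPM with valemetostat and 30.8 ± 1.9 with tazemetostat, against 39.4 ± 2.0 with DMSO (log2 -0.34 and -0.36, edgeR adjusted p = 0.000432 and 0.000244), though the tazemetostat fall did not pass on log2(TPM + 1) (0.0617). Smad1 and Smad9 each held at most 2 counts in any library. Of 21 tested SMAD anchors, nuclear cofactors and co-repressors, 2 rose and 9 fell with valemetostat, and 2 rose and 8 fell with tazemetostat. The median log2 fold change of that list was -0.18 and -0.16, beside 0.01 and 0.00 over all genes tested. Zeb2, a SMAD-binding repressor, fell to 25.5 CPM with valemetostat and 26.1 with tazemetostat, against 48.1 with DMSO (log2 -0.92 and -0.88, adjusted p = 8.58e-10 and 1.55e-09). The co-repressors Tgif1 (log2 -0.47 and -0.29) and Ncor1 (log2 -0.40 and -0.32) and the transcription factor gene Mef2a (log2 -0.25 and -0.18) fell with both. The count of these genes lower with tazemetostat was 4 without DMSO replicate 1 and 5 without DMSO replicate 2, in place of 8. On log2(TPM + 1) none of the 21 was called higher with either inhibitor.

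Of 20 tested genes for SMAD and receptor turnover, 4 rose and 7 fell with valemetostat, and 5 rose and 7 fell with tazemetostat. The ubiquitin ligase genes Wwp1 and Nedd4l were among the higher with tazemetostat (log2 0.49 and 0.39, edgeR adjusted p = 3.46e-06 and 1.51e-05, and 0.0536 for Nedd4l on log2(TPM + 1)), and the ligase gene Itch fell (log2 -0.28, adjusted p = 0.000329). These 3 moved the same way with valemetostat, averaging 35.7, 42.8 and 88.2 CPM against 27.9, 35.5 and 104.5 with DMSO. Axin1, a scaffold that also binds SMAD7, fell with both inhibitors (log2 -0.29 with valemetostat and -0.30 with tazemetostat). Usp9x, a deubiquitinase for SMAD4, Trim33 and Rnf111 fell with valemetostat (log2 -0.31, -0.30 and -0.36). Without DMSO replicate 2 or tazemetostat replicate 3, 3 turnover genes in place of 5 rose with tazemetostat. The Usp9x value was -0.06 and did not pass with the length and GC offset (adjusted p = 0.146). Of 13 tested RUNX genes and partners, 3 rose and 4 fell with valemetostat, and 3 rose and 1 fell with tazemetostat, where 39.2% and 38.1% of all genes were called. Only 1 in place of 3 rose with tazemetostat on log2(TPM + 1). The count that fell with tazemetostat was 3 with library totals, 2 without DMSO replicate 3 and 0 without tazemetostat replicate 1. Cbfb, the shared partner subunit of RUNX proteins, fell with tazemetostat (log2 -0.15, adjusted p = 0.0187), a call not made without DMSO replicate 1 or without tazemetostat replicates 1 or 2 (adjusted p = 0.0816 to 0.0930). Cbfb averaged 124 CPM with valemetostat, against 136 with DMSO. Cebpb rose (log2 0.66 with valemetostat and 0.55 with tazemetostat, adjusted p = 0.00221 and 0.0100), though not with tazemetostat without DMSO replicate 1 (0.0644). By the same naming rule, Tle3 and Wwtr1 were called lower with valemetostat and Tle5 higher with tazemetostat. With valemetostat, tazemetostat and DMSO, Tle3 averaged 98.4, 109 and 112 CPM, Wwtr1 46.2, 48.35 and 53.8, and Tle5 130, 128 and 114.5. The Tle3 call was not made under 3 of 19 alternatives and the Tle5 call under 6.

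Genes known from other cells to be induced or repressed by TGF-β moved both ways. Of 25 tested, 6 rose and 8 fell with valemetostat, and 9 rose and 6 fell with tazemetostat, where 39.2% and 38.1% of all genes were called. The counts that rose were 1 in place of 6 with valemetostat and 5 in place of 9 with tazemetostat on log2(TPM + 1). Bcl2l11, which encodes the pro-apoptotic protein BIM, fell to 57.9 CPM with valemetostat and 61.1 with tazemetostat, against 95.9 with DMSO (log2 -0.73 and -0.65, edgeR adjusted p = 1.42e-10 and 1.02e-09). Bhlhe40, a transcriptional repressor, rose to 250 CPM with valemetostat and 311 with tazemetostat, against 203 with DMSO (log2 0.30 and 0.62, adjusted p = 1.15e-05 and 9.13e-11). With tazemetostat Spsb1 (log2 0.62) and the phosphatase gene Dusp4 (log2 0.42) rose as well. These genes averaged 62.5 and 157.5 CPM with valemetostat, also above the 49.7 and 133.4 with DMSO. Bhlhe40, Gadd45b and Spsb1 were lower with valemetostat than with tazemetostat (log2 -0.31, -0.37 and -0.29, adjusted p = 0.00186, 0.00186 and 0.0258). They were the 3 genes of the list called in that comparison, and none of them passed on log2(TPM + 1). Spsb1 also did not pass with library totals, or without any 1 of the 3 valemetostat libraries or of tazemetostat replicates 1 and 2. Pmepa1, often used as a TGF-β target gene, was at 0 counts in all libraries.

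**Figure D5:**
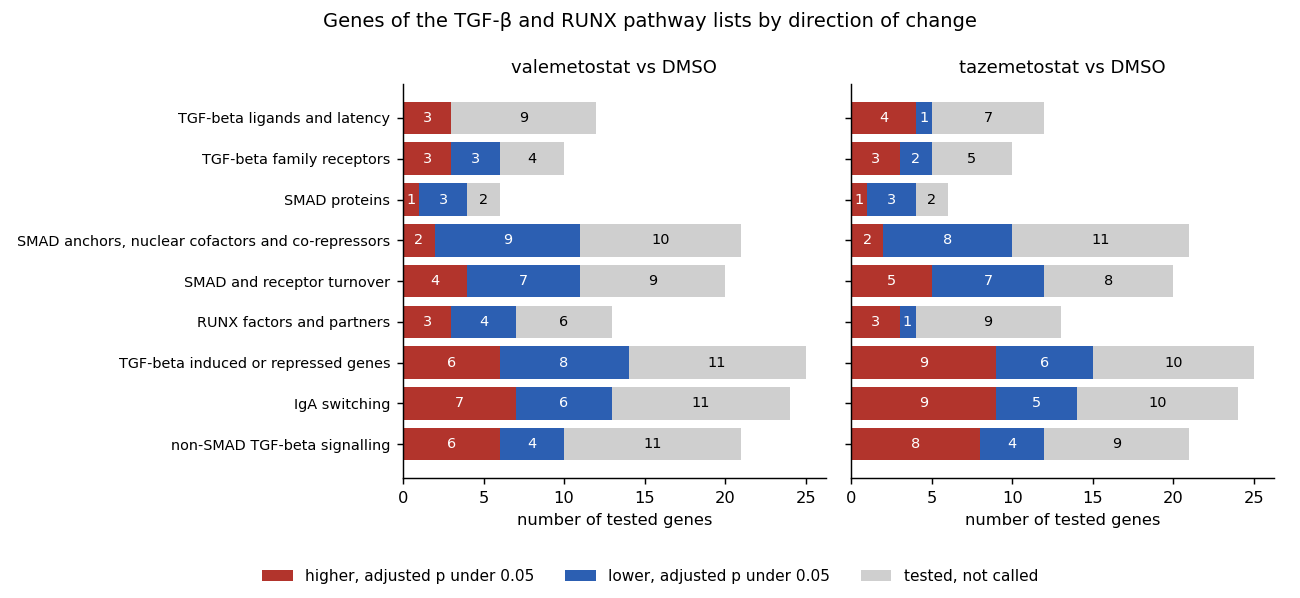
Number of tested genes (x axis) of 9 pathway lists that were higher, lower or not called, with valemetostat on the left and tazemetostat on the right. Lower genes outnumber higher ones among SMAD anchors and cofactors in both panels (9 to 2 and 8 to 2), while the lists of induced or repressed genes and of IgA switching hold both directions.

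Transcripts of genes tied to IgA switching were counted in the same libraries. The counts are per gene and do not separate germline from switched Igha transcripts, so they do not measure switching. Igha averaged 124 CPM with valemetostat, 129 with tazemetostat and 128 with DMSO and was not called (log2 -0.04 and 0.01, edgeR adjusted p = 0.512 and 0.856), while Ighm rose by log2 0.28 and 0.21 (adjusted p = 4.29e-05 and 0.000915). Of 24 tested genes of that list 7 rose and 6 fell with valemetostat, and 9 rose and 5 fell with tazemetostat (3 fell without tazemetostat replicate 3), where 39.2% and 38.1% of all genes were called. The BAFF receptor gene Tnfrsf13c rose by log2 0.58 and 0.72, the transcription factor gene Batf by 0.36 and 0.49, and Il21r fell (log2 -0.31 and -0.34).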

How the data were processed

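RNA-seq of poly(A)-selected RNA gave 9 libraries in 3 groups, with groups taken from the submitters' labels. The authors deposited whole-number counts per gene and, in a second table, log2 values, which are log2(TPM + 1). The submitters' processing notes name the build mm9. No aligner or counting program is stated, and the strand setting and annotation are likewise not given in the sources used here. All 9 pairs of replicates differed by more than sampling noise.

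Counts were tested with edgeR 4.0.16 in R 4.3.3, with TMM scaling, the robust quasi-likelihood F test and all libraries in 1 fit. The filterByExpr filter used a minimum count of 10 and a total of 15. A gene was called where its p, adjusted over 12580 genes by Benjamini and Hochberg, was under 0.05. The SE is the absolute log2 fold change over the root of F, and intervals are 95%. The test was checked on simulated counts with known changes. CPM are TMM-scaled, and TPM were computed back from the deposited log2 values. Transcript length, GC content and exon overlap came from GENCODE M21, and promoter windows from RefSeq, both used without converting coordinates.

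The genes, lists and named-gene rule were chosen with earlier results of these data known. Named were all 10 genes, up to 4 called genes of smallest p per list and comparison, the 3 genes most alike in pattern for the 3 genes of largest mean change, and transcripts of IgA switching (Igha and Ighm, with 1 gene not reported here); Smad1, Smad9, Runx1, Ltbp3, Pmepa1 and Lig4 were named after their values were seen. Tried instead were library totals, median-ratio size factors, DESeq2 1.42.0, no filter, at least 1 CPM in 3 libraries, limma-trend (limma 3.58.1) on log2(TPM + 1), the replicate block, the 2 compared groups alone, a length and GC offset (spline of 5 degrees of freedom per library, genes of at least 3 log2 CPM), that offset with the block, and leaving out each library. Applying them to the pathway lists and their named genes was chosen after seeing the data.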

Additional observations from a re-analysis of the deposited data

How the results depend on the processing

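Against DMSO, Tgfb1, Tgfbr1, Tgfbr2 and Runx2 kept direction and call under all 19 alternatives. Some counts over all genes and over the 10 genes moved by over 1.5 times. With limma-trend on log2(TPM + 1), 3123 genes were called with tazemetostat in place of 4794, and 5 of the 10 genes with valemetostat in place of 8. For valemetostat against tazemetostat, 40 genes were called, against 75 with DESeq2, 93 with no filter, 27 with library totals, 1 with limma-trend, 80 with the length and GC offset, and 9 to 73 with 1 library left out. In that comparison 1 of the 10 genes was called, against 0 with library totals, 0 with limma-trend, 0 with the replicate block (Runx2 adjusted p = 0.0533), 2 with no filter, 2 with the length and GC offset, and 0 to 1 with 1 library left out. With 1 library left out, 7 to 9 of the 10 genes were called with valemetostat and 6 to 8 with tazemetostat.

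Values near 0 turned sign. On log2(TPM + 1) these were Smad3 (-0.0586) and Runx3 (-0.0336) for tazemetostat against DMSO, and Smad2 (3e-04), Smad4 (-0.0168) and Skil (0.0298) between the inhibitors. With the length and GC offset they were Smad3 for valemetostat against DMSO (0.0379, and 0.0378 with the replicate block added), and Tgfbr1 (0.0075 and 0.0074) and Smad2 (0.0058 and 0.0061) between the inhibitors. With 1 library left out, Smad3 for valemetostat spanned -0.0444 to 0.0193, and between the inhibitors Tgfbr1 spanned -0.0354 to 0.0065, Smad2 -0.0613 to 0.0169 and Smad4 -0.0207 to 0.0404. The cause was not tested.

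The share of called genes that were higher was 36.0% with valemetostat and 37.7% with tazemetostat on log2(TPM + 1), against 52.3% each on counts. Replicate numbers do not pair the libraries: deviations of same-numbered libraries correlated at -0.04 to 0.076, none of 9 pairs over 0.1. Counts of the pathway lists also moved by over 1.5 times on log2(TPM + 1). Called higher with tazemetostat there were 2 ligand and latency, 1 turnover, 5 IgA, 1 RUNX, 1 receptor, 5 induced or repressed and 1 non-SMAD genes, in place of 4, 5, 9, 3, 3, 9 and 8. Called higher with valemetostat were 1 ligand and latency, 2 turnover, 1 induced or repressed and 2 non-SMAD genes, in place of 3, 4, 6 and 6. Called lower were 1 SMAD gene in place of 3 and 3 IgA genes in place of 5 with tazemetostat, and 2 RUNX genes in place of 4 with valemetostat. Smad2, the 1 SMAD gene called higher, was not called there. With the length and GC offset, 4 turnover genes in place of 7 and 1 receptor gene in place of 2 were lower with tazemetostat. Ltbp3 and Tgfbr3 rest on few counts, with group means under 1 CPM, and each passed the filter only through the groups where it was high. The doses, the protein levels and the cells without TGF-β are not in these data.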

Other observations

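TGF-β receptors also signal through kinase cascades that do not use SMADs. Of 21 tested genes of these branches, 6 rose and 4 fell with valemetostat, and 8 rose and 4 fell with tazemetostat, where 39.2% and 38.1% of all genes tested were called. With limma-trend on log2(TPM + 1), 2 in place of 6 rose with valemetostat and 1 in place of 8 with tazemetostat. Pik3r1, a regulatory subunit of PI3 kinase, measured 33.2 CPM with valemetostat and 34.5 with tazemetostat, against 18.8 with DMSO (log2 0.82 and 0.88, edgeR adjusted p = 4.20e-09 and 1.24e-09). The MAP kinase kinase gene Map2k6 rose (log2 0.39 and 0.28, the tazemetostat rise not passing on log2(TPM + 1), adjusted p = 0.0634), whereas Map2k3, which encodes the closely related kinase, fell with valemetostat (log2 -0.33, adjusted p = 3.42e-05). Map2k3 averaged 65.6 CPM with tazemetostat, also below the 77.9 with DMSO. Sos1, an exchange factor of RAS, fell to 39.3 CPM with valemetostat and 41.2 with tazemetostat, against 54.6 with DMSO (log2 -0.47 and -0.40). Tab2, an adaptor of the TAK1 kinase, rose with tazemetostat (log2 0.35, adjusted p = 2.04e-05), though not on log2(TPM + 1) (adjusted p = 0.0680). Tab2 averaged 124 CPM with valemetostat, also above the 104 with DMSO.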
